A study of Mus musculus with 3 samples.

Results

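Ephrins, netrins, Slits and the receptors that bind them are signals that tell a migrating cell or a growing axon where to go and which neighbours to avoid. They were examined in Meis1-EGFP positive cells sorted from fetal mouse kidney. The list holds 37 genes: 8 ephrins and 13 Eph receptors, 3 netrins and 6 netrin receptors, 3 Slits and 4 Robo receptors. Every probe set whose platform annotation gives a single one of these symbols was used. That gave 76 probe sets for 36 genes, out of 18193 genes with a value on the arrays. The receptor gene Ephb2 had no such probe set and was not analysed here. No probe set with several symbols named a member.

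The series profiled a single group, so there is no contrast between conditions. The cells carried the transgene Tg(Meis1-EGFP)FO156Gsat, in which the Meis1 gene's control elements drive green fluorescent protein, on a CD-1 background. Kidneys of stage E15.5 (Theiler stage 23, sex unknown) were pooled in lots of about 20, digested with trypsin and sorted for green fluorescence, and 1 pool was hybridised to each of 3 arrays after 2 rounds of RNA amplification. The labels do not say that the pools came from separate litters, so the spread behind each p-value is that between these pools and may be technical. The title of the series calls the cells peripheral blastema, and the sample source calls them nephrogenic interstitium. All 6 nephrogenic interstitium markers lay above background, among them Foxd1 at 7.47 ± 0.21 and Meis1 at 6.84 ± 0.21 log2 units (SE, n = 3). Each SE of a distance given here is limma's moderated SE, which draws on the spread of all genes as well as the gene's own. Because the sorted reporter is driven by Meis1 control elements, the Meis1 call is not independent of the sort. Of all genes 57.3% lay above background, the share to set beside each marker count. Of 5 cap mesenchyme markers 4 were above, with Six2 at 1.86 and Gdnf at 7.37 but Cited1 at -4.20. Smooth muscle and pericyte markers were above in 3 of 5 cases, near the share of all genes. Acta2 lay at 5.37 and Rgs5 at 2.93, while Tagln at -0.40 and Myh11 at 0.01 were not called. Ureteric bud markers were above in 4 of 9 cases, with Wnt11 at 2.06, Calb1 at 1.64, Epcam at 4.13 and Krt18 at 2.19. The 5 not called included Ret at -0.34 and Wnt9b at -0.13. Markers of early nephron and podocyte were above in 1 of 5 measured cases (Jag1, 3.08), while Wnt4 lay at -0.07 and Pax8 at -0.36.

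Background was set on each array from 72 chemosensory receptor genes, which are made in sensory neurons. The 95th percentile of their signals was 135, 185 and 168 in replicates 1, 2 and 3. Because the level was lowest on replicate 1, an equal signal lies further above background there. A gene is called above background here when the log2 signal of its brightest probe set, minus the level of the same array, exceeded 0 in limma's one-sided test with a Benjamini-Hochberg adjusted p under 0.05 over all genes. Probe sets bind their targets with different strength, so distances of different genes were not ranked, and a gene that was not called may still be transcribed. In a bulk sample, fewer cells of a type and less RNA per cell cannot be told apart.

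Ephrins are membrane-bound ligands. The A class is held by a lipid anchor and the B class spans the membrane, and each class binds mainly the Eph receptor tyrosine kinases of its own letter, with signals running into both cells. Netrins are secreted relatives of laminin that attract through Dcc and its relative neogenin and repel through the Unc5 receptors. Slits are large secreted proteins that repel cells through Robo receptors, and in the mouse kidney Slit2 and Robo2 are known for keeping the Gdnf-expressing mesenchyme, and with it the site of ureteric budding, in bounds. Ephrin-B2 and its receptor EphB4 are best known for arteries and veins, and Robo4 for endothelium.

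Of the 36 measured members 20 lay above background (55.6%), where 57.3% of all genes did, so the list as a whole was near the share of the array. Without a test, 22 members exceeded the level on each of the 3 arrays, as did 59.2% of all genes. The systems differed in their counts, with 14 of 20 for ephrins and Eph receptors, 4 of 9 for netrins and their receptors, and 2 of 7 for Slits and Robos. Median distances were 2.18, 0.45 and -0.21 log2 units for the 3 systems, beside 1.52 over all genes. No test between the systems was made. Genes with several probe sets were called more often in general (75.8% of all such genes, and 39.2% of genes with a single one). Among members 14 of 21 genes with several probe sets were called, and 6 of 15 genes with a single one.

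**Figure D1:**
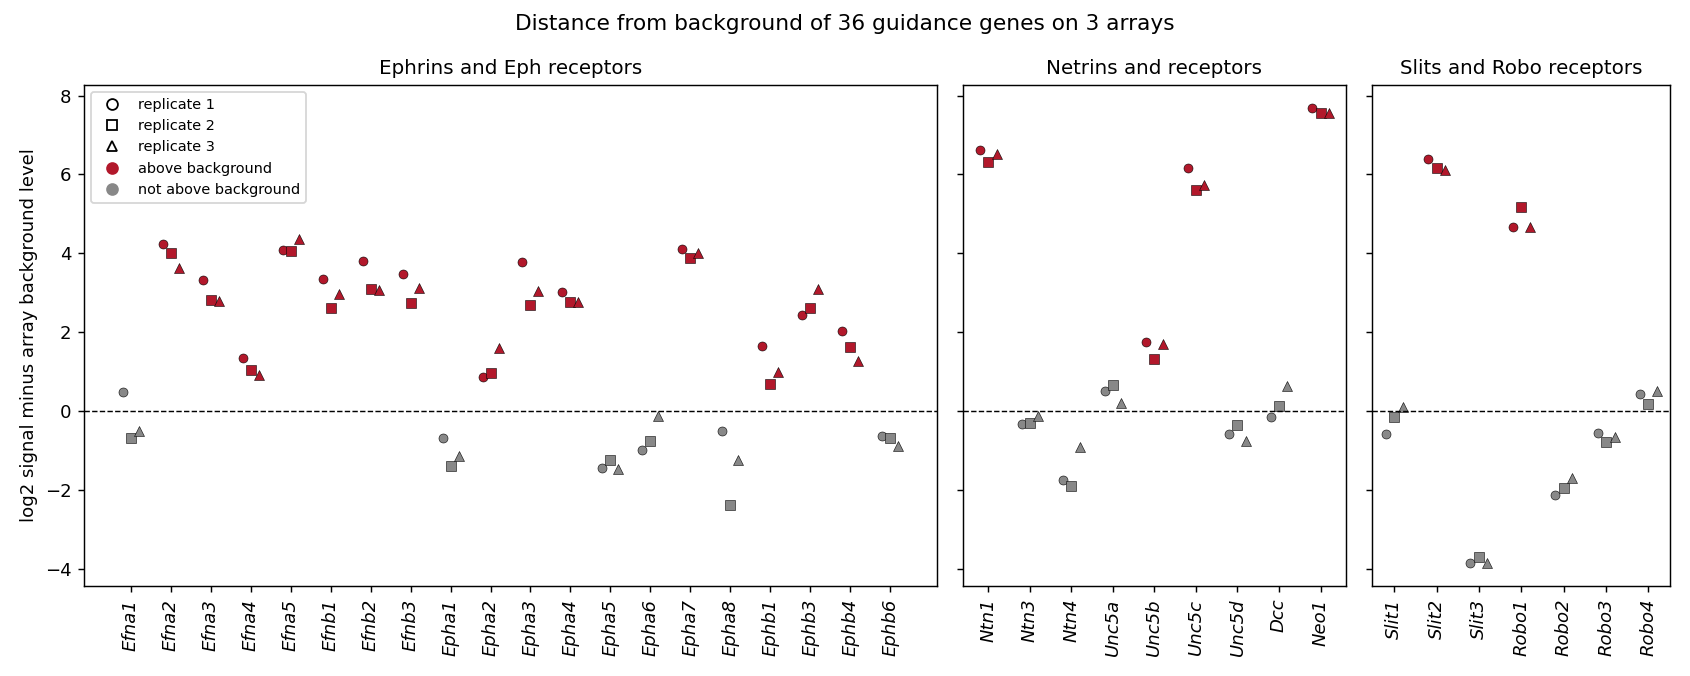
Distance from background of the 36 measured genes, on a log2 scale, with the gene on the horizontal axis, 1 panel per system, and 1 point per array. The dashed line is the array's own background level. All 20 genes above background (red) lie over the line on each array, while among the 16 others (grey) Unc5a and Robo4 do so too without passing the test.

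Promoters of 4 members are shown to set CpG content beside the calls: Neo1 and Slit2 were called, and Slit3 and Robo4 were not. Each is the 250 bases before the transcription start, 5′ to 3′ on the gene's own strand, from RefSeq (GRCm38.p6), with every CpG dinucleotide in capitals. CpG-rich promoters are typical of housekeeping and developmental genes. The Neo1 promoter (chr9:59036442-59036691, minus strand) held 45 CpGs, a number that 0.4% of all promoters in the table reached. The Slit2 promoter (chr5:47982905-47983154, plus strand) held 25. Slit3 (chr11:35121206-35121455, plus strand) had 35 CpGs before its start, and Robo4 (chr9:37401722-37401971, plus strand) had 2.
Neo1: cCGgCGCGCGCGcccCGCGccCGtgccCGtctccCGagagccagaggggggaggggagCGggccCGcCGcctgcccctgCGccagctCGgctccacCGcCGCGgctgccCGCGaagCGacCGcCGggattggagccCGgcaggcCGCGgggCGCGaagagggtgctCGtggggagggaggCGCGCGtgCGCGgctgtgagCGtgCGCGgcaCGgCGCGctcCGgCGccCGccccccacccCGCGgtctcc
Slit2: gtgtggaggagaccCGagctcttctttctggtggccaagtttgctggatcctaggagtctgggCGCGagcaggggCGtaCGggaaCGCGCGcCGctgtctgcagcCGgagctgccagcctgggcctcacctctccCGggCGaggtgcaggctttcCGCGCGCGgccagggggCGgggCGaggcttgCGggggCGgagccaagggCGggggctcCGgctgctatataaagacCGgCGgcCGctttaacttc
Slit3: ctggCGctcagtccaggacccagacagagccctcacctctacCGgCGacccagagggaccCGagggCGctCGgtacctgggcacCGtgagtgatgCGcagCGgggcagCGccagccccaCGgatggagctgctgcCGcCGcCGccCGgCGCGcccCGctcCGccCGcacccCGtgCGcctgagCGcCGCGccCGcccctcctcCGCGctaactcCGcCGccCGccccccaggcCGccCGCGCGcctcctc
Robo4: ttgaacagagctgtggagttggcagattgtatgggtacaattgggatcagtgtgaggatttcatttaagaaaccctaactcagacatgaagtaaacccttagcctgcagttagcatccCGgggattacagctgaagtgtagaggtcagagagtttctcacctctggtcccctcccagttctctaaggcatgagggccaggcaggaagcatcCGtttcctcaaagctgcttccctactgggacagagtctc

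A promoter was listed for 32 of the 37 members, 37 promoters in all since some genes have several starts. The promoters of called members held 7 to 45 CpGs (20 promoters, with a median ratio of observed to expected CpGs of 0.73), and those of members not called held 2 to 46 (16 promoters, median ratio 0.62). Over all 32851 promoters the median was 6 CpGs and the median ratio 0.37. All 20 promoters of called members held more CpGs than that general median of 6, and so did 14 of 16 promoters of members not called. A promoter with more CpGs than the general median was thus common in both sets, and the Slit2 and Slit3 sequences are examples. The core Meis binding motif TGACAG, searched on both strands, occurred in 4 of the 37 promoters (Efna3, Efnb2, Ntn4 and Robo2, 10.8%) and in 15.9% of all promoters. The TATA box letters TATAAA, also on both strands, occurred in 2 (Efnb2 and Slit2, 5.4%) and in 12.4% of all promoters. Member promoters had a median GC content of 65.6%, beside 52.4% for all promoters. The motif shares were not corrected for this, so they do not show depletion of either motif.

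**Figure D2:**
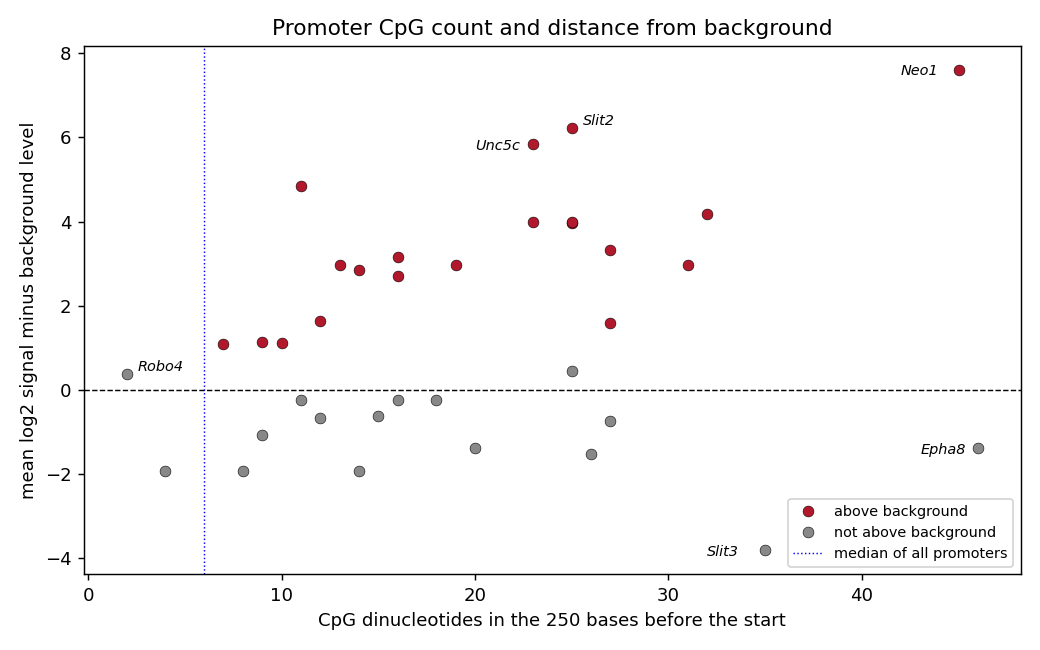
CpG dinucleotides in the 250 bases before the start (horizontal axis) against the gene's mean log2 distance from background (vertical axis), 1 point per promoter of a measured member. The dotted line is the median of all promoters, 6. Neo1 with 45 CpGs lies at 7.60 log2 units and Epha8 with 46 at -1.38, so CpG-rich promoters appear on both sides of the background line.

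Ephrins were above background in 7 of 8 cases, all but Efna1, and the B class in 3 of 3. Beside this stand 57.3% of all genes and 75.8% of genes with several probe sets. The A-class ligand gene Efna5 had signals of 2290, 3099 and 3492 in replicates 1, 2 and 3. It lay 4.18 ± 0.21 log2 units above background, which is 18.1-fold (SE, n = 3; limma adjusted p = 2.63e-06). Efna2 had 2552, 2951 and 2083 and lay 3.96 ± 0.22 above (limma adjusted p = 4.61e-06). No chemosensory receptor gene was as bright as either gene on any array. Both calls rest on 1 of 2 probe sets, and the other lay at -1.22 for Efna5 and at -0.54 for Efna2. Efna3 had signals of 1342, 1313 and 1161 and lay 2.98 ± 0.22 above, and its second probe set was called too, at 1.91. Efna4, measured by a single probe set, had 342, 379 and 318 and lay 1.10 ± 0.21 above (limma adjusted p = 0.00204). That call was lost with the background level at the 99th percentile (0.61, adjusted p = 0.0529).

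Efna1, a ligand that is often found on blood vessels, had signals of 189, 115 and 119. It exceeded the level on replicate 1 only, and its mean distance was -0.23 ± 0.29 (limma adjusted p = 1). Efna1, Efna3 and Efna4 are direct neighbours on chromosome 3, with no other protein-coding gene between them in the RefSeq annotation, so called and uncalled genes stood side by side there.

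The B-class ligands gave distances close to 3 log2 units each. Efnb1, the X-linked member whose human form is mutated in craniofrontonasal syndrome, had signals of 1371, 1136 and 1314 in replicates 1, 2 and 3 and lay 2.98 ± 0.23 above background (limma adjusted p = 2.16e-05). Its other probe sets lay at 0.94 and 0.12, and neither was called. Efnb2 had signals of 1880, 1592 and 1406 and lay 3.32 ± 0.24 above (limma adjusted p = 1.53e-05). Of its 4 probe sets 2 were called, and the others lay at -1.45 and -3.72. With the mean over probe sets in place of the brightest, the distance of Efnb2 was 0.24 and the call was lost (adjusted p = 0.277). Efnb3, with a single probe set, had 1505, 1238 and 1471 and lay 3.12 ± 0.23 above.

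Among EphA receptors 4 of 8 were called, beside 57.3% of all genes. Epha7, a receptor that binds A-class ephrins and is known for patterning in the developing nervous system, had signals of 2328, 2727 and 2685 and lay 4.00 ± 0.20 log2 units above background (limma adjusted p = 2.86e-06). A second of its 4 probe sets was called at 2.73. Epha3 had 1842, 1183 and 1378 and lay 3.16 ± 0.27 above. Epha4, which is promiscuous and also binds B-class ephrins, had 1098, 1253 and 1135 and lay 2.85 ± 0.20 above. Epha3 and Epha4 each rest on 1 called probe set, of 4 and 5. The mean over probe sets placed them below the level, at -0.95 and -0.28. Epha2, an epithelial receptor in many tissues, had signals of 247, 361 and 509 and lay 1.14 ± 0.24 above (limma adjusted p = 0.00296).

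The other EphA receptors, Epha1, Epha5, Epha6 and Epha8, lay below the level on all 3 arrays. Their mean distances were -1.07 for Epha1, -1.38 for Epha5, -0.63 for Epha6 and -1.38 for Epha8, each with a limma adjusted p of 1. Epha1 had 3 probe sets and Epha5 had 4, and none was called. Epha5 is known mainly from the nervous system, and at least 25 of the 72 chemosensory genes were brighter than it on each array.

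EphB receptors were called in 3 of 4 measured cases, each on its only probe set. Beside this stand 57.3% of all genes and 39.2% of genes with a single probe set. Ephb3, known from intestinal crypts, had signals of 731, 1122 and 1437 in replicates 1, 2 and 3 and lay 2.71 ± 0.23 log2 units above background (limma adjusted p = 3.17e-05). Ephb4, the venous receptor of ephrin-B2, had 553, 573 and 403 and lay 1.64 ± 0.24 above. Ephb1 had 422, 297 and 337 and lay 1.11 ± 0.26 above (limma adjusted p = 0.00492), and raising the background level to the 99th percentile ended this call (0.62, adjusted p = 0.0591). Ephb6, which lacks kinase activity, had 86.7, 115 and 91.8 and was not called at -0.73 ± 0.20. Sorted cells thus held called ligands and called receptors of both Eph classes.

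Genes that work with Eph receptors were largely above background, 21 of 24 measured, against 57.3% of all genes and 75.8% of those with several probe sets. Adam10, the protease that can cut ephrins from the membrane, lay at 6.72 ± 0.20 log2 units. The adaptors Nck1 and Nck2 lay at 4.99 and 5.11, and the exchange factor Vav2 at 4.63. Exceptions were Ngef (0.02) and Arhgef15 (-0.30), exchange factors of the ephexin family that Eph receptors activate, and the receptor gene Epha10 (-3.79). Most of these relays serve many other receptors as well.

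In the netrin system 1 ligand and 3 receptors were called, 4 of 9 genes beside 57.3% of all genes. Ntn1, which encodes netrin-1, had signals of 13187, 14738 and 15486 in replicates 1, 2 and 3. These lay 6.48 ± 0.20 log2 units above background, which is 89.5-fold (SE, n = 3; limma adjusted p = 7.78e-07). The value comes from probe set 1454974_at. The other Ntn1 probe set, 1422987_at, had signals of 74.4, 46.7 and 58.9 and lay at -1.45, below the level on all 3 arrays. The distance between the 2 probe sets was 7.94 log2 units, and the Ntn1 call rests on the brighter one.

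The other netrins among the members, Ntn3 and Ntn4, were not called. Ntn3 had signals of 108, 151 and 155 and a distance of -0.24 ± 0.20. Ntn4, a netrin of basement membranes, had 40.1, 49.6 and 90.1 and a distance of -1.52 ± 0.27, and its second probe set lay at -4.95. All signals of both genes were under the level of their array.

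Neo1, which encodes neogenin, a receptor for netrins and for the repulsive guidance molecules, had signals of 27908, 34691 and 31899. It lay 7.60 ± 0.20 log2 units above background (195-fold; limma adjusted p = 7.78e-07). That probe set, 1447693_s_at, is of a class that can match more than 1 transcript. The plain probe set 1434931_at gave 10209, 11516 and 11507 and lay 6.10 above, so Neo1 was called without the other probe set too. Probe set 1447694_x_at was also called, at 1.83, and the remaining ones of 5 lay at 0.42 and -1.22.

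Unc5c, a repulsive netrin receptor, had signals of 9613, 9063 and 8978 and lay 5.84 ± 0.22 log2 units above background (57.1-fold; limma adjusted p = 1.05e-06). Both of its probe sets were called, the second at 3.13, and its arrays agreed to an SD of 0.04 log2 units. Unc5b, best known from endothelium, had 450, 458 and 546 and lay 1.58 ± 0.21 above (limma adjusted p = 0.000351). A second Unc5b probe set lay at -0.93, and the mean of the pair was no longer called (0.52, adjusted p = 0.0517).

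Unc5a and Dcc, both best known from neurons, stood near the background level. Unc5a had signals of 192, 290 and 193 and lay 0.45 ± 0.21 log2 units above, over the level on all 3 arrays but without passing the test (limma adjusted p = 0.0683). It was called in 5 of 11 alternative settings. Dcc had 122, 201 and 260 in its brightest probe set, a mean distance of 0.20 ± 0.24 (limma adjusted p = 0.355), and lay over the level on 2 of 3 arrays. The other Dcc probe sets lay at -1.68 and -3.54. Unc5d had 89.9, 145 and 99.8 and was not called at -0.56 ± 0.21. Of 6 measured neural and glial markers 3 were above background, beside 57.3% of all genes. They were Stmn2 at 0.80, Elavl4 at 1.57 and Dbh at 2.47. The 3 not called were Tubb3 at -3.90, Sox10 at -0.20 and Fabp7 at -0.12. The summed signal of the 6 neural and glial markers was 1986, 1903 and 2051, and none was listed at 0. Their part in the Unc5a and Dcc signals was not tested.

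Of 22 measured netrin partners 15 were above background (68.2%, against 57.3% of all genes and 75.8% of those with several probe sets). The membrane-anchored netrin gene Ntng1 lay at 3.66 ± 0.20 log2 units and Rgmb, a repulsive guidance molecule that binds neogenin, at 2.51 ± 0.24. The cytoskeletal protein gene Ablim1 lay at 4.36 and Pitpna, a phosphatidylinositol transfer protein, at 4.24. Ntn5 (-0.59), Ntng2 (-2.21) and the netrin receptor gene Dscam (-1.33) were among the 7 not called.

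In the Slit system a single ligand and a single receptor were called, 2 of 7 genes beside 57.3% of all genes. Slit2 had signals of 11324, 13169 and 11609 in replicates 1, 2 and 3. They lay 6.22 ± 0.20 log2 units above background, which is 74.4-fold (SE, n = 3; limma adjusted p = 8.06e-07). This was probe set 1424659_at. The others, 1451430_at and 1458140_at, lay at 0.61 and 0.58, and the second of them was called in the test over probe sets (limma adjusted p = 0.0393). Slit1, expressed mainly in the nervous system, had 89.9, 168 and 181 and lay at -0.21 ± 0.23. Slit3 had 9.35, 14.2 and 11.6 from its only probe set and lay at -3.81 ± 0.20, with at least 56 of the 72 chemosensory genes brighter on each array.

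Robo1 had signals of 3455, 6636 and 4305 and lay 4.84 ± 0.22 log2 units above background (28.6-fold; limma adjusted p = 1.89e-06). The call rests on 1 of 3 probe sets, and the others lay at -0.02 and -0.23. Robo2, the Slit receptor known from mouse nephrogenic mesenchyme, had 30.8, 48.0 and 52.1 from its only probe set and a distance of -1.92 ± 0.21. Robo3, which is known from commissural neurons, had 91.8, 108 and 106 in the brighter of its probe sets and lay at -0.67 ± 0.20. Robo1 and Robo2 are direct neighbours on chromosome 16 and Robo3 and Robo4 on chromosome 9, so the neighbours Robo1 and Robo2 fell on opposite sides of the call. Robo2 had a single probe set, and Robo1 also had probe sets that were not called. The calls therefore cannot show that the genes differed.

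Robo4 had signals of 180, 210 and 240 in replicates 1, 2 and 3 and lay 0.37 ± 0.21 log2 units above background, over the level on each array but not called (limma adjusted p = 0.104). It was called in 4 of 11 alternative settings. Endothelial markers were above background in 6 of 10 cases, a share near the 57.3% of all genes. Among those called were Cdh5 at 1.31, Kdr at 1.07 and Tek at 2.86. The 4 not called included Pecam1 at -1.64, Flt1 at -0.67 and Tie1 at -3.72. The summed signal of the 10 endothelial markers was 3501, 3605 and 4136 on the 3 arrays and none was listed at 0. The part of endothelial cells in the signals of Robo4, Unc5b, Ephb4 and Efnb2 was not tested.

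Slit and Robo partners were above background in 16 of 17 measured cases, against 57.3% of all genes. As in the Eph list, several of these genes serve many other receptors as well, so the count does not measure Slit and Robo signalling. The GTPase-activating proteins that bind Robo gave 1.41 ± 0.24 log2 units for Srgap1, 3.69 ± 0.28 for Srgap2 and 3.57 ± 0.23 for Srgap3. Gpc1, a heparan sulfate proteoglycan that can bind Slit, lay at 2.32 ± 0.22. The exception was Nell2, a Robo3 ligand in the mouse, at 0.58 ± 0.29 (limma adjusted p = 0.0775). Over the 3 lists of partners 52 of 63 measured genes were called, and 4 of the 67 listed had no value. Of all genes with several probe sets 75.8% were called. With the mean over probe sets in place of the brightest, 42 of the 63 partners were called, beside 50.4% of all genes.

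Probe sets of a gene often disagreed. Of the 76 member probe sets 27 were above background in a fit over all probe sets, where 48.7% of 34945 were. By system, 17 of 44 were called for ephrins and Eph receptors, 7 of 19 for netrins and their receptors and 3 of 13 for Slits and Robos. Of 14 called members with several probe sets, 12 also had one that was not called (85.7%, beside 66.2% of such genes on the whole array), and 8 rested on a single called probe set (57.1%, beside 37.9%). The brightest and dimmest probe sets of a called gene lay between 1.07 (Efna3) and 8.82 (Neo1) log2 units apart, with a median of 5.23, beside 4.36 over all such genes. The 6 genes with at least 2 called probe sets were Efna3, Efnb2, Epha7, Unc5c, Neo1 and Slit2. The 3′ control probe set of Gapdh exceeded the 5′ one by 5.00, 5.39 and 5.26 log2 units in replicates 1, 2 and 3, and that of Actb by 3.04, 3.40 and 3.04. The part of this 3′ excess in the disagreement was not tested.

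**Figure D3:**
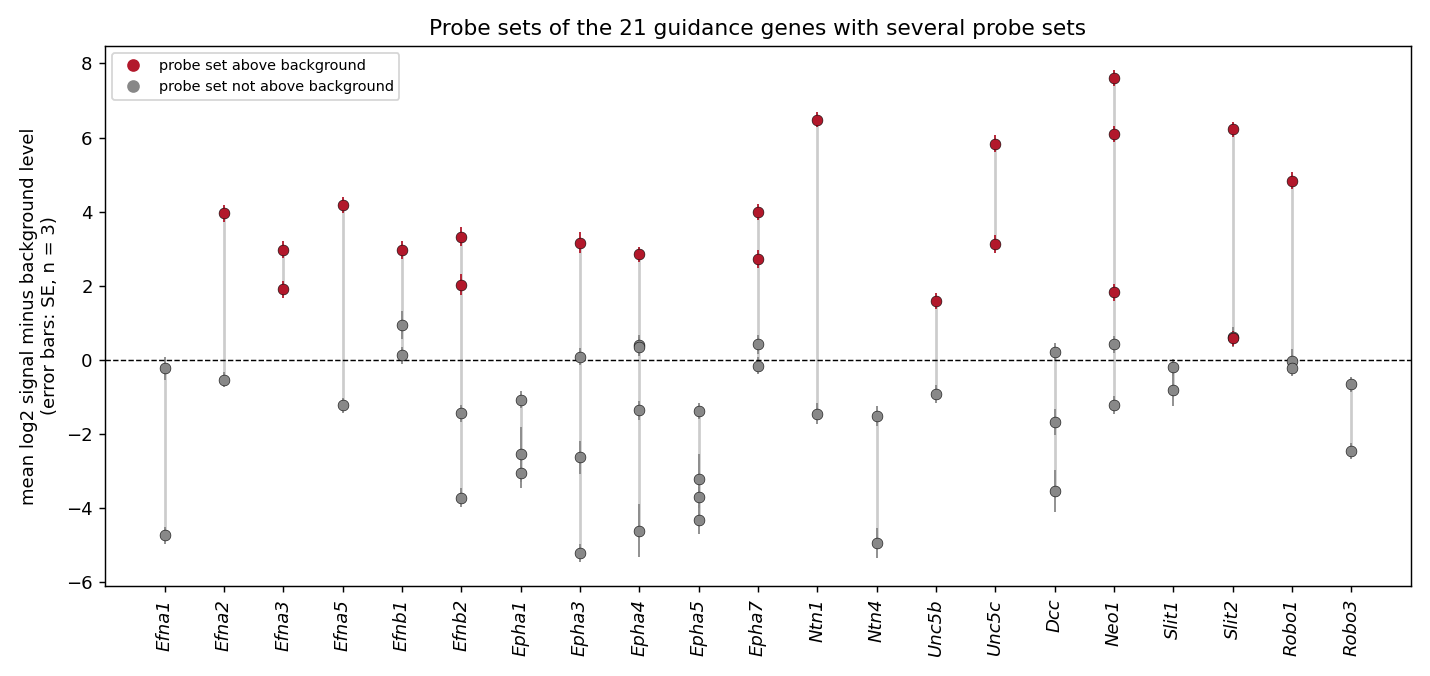
Mean log2 distance from background of each probe set (points, with limma's moderated SE, 3 arrays) of the 21 members with several probe sets, the gene on the horizontal axis. Red points were above background in the test over all probe sets. In Ntn1 the pair lies at 6.48 and -1.45, while both probe sets of Efna3 and of Unc5c lie above the line.

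By the median SD, the 3 arrays agreed about as well on these genes as on others, but the upper end of the spread was wider. After each array was centred on its median, called members had a median SD of 0.17 log2 units over the arrays, beside 0.16 for all genes above background. The 90th percentile of the SD was 0.49 for called members and 0.34 for all genes above background. Epha2 varied most among the called members (SD 0.54, 98.3th percentile of all called genes), with its signal highest on replicate 3 and lowest on replicate 1. Ephb3 had an SD of 0.51 (97.9th percentile) and was also highest on replicate 3 and lowest on replicate 1. Robo1 had an SD of 0.49 (97.4th percentile), and its signal on replicate 2 was 1.92 times that on replicate 1. Unc5c varied least among them. With 1 pool per array and 1 group, differences between arrays have no test.

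**Figure D4:**
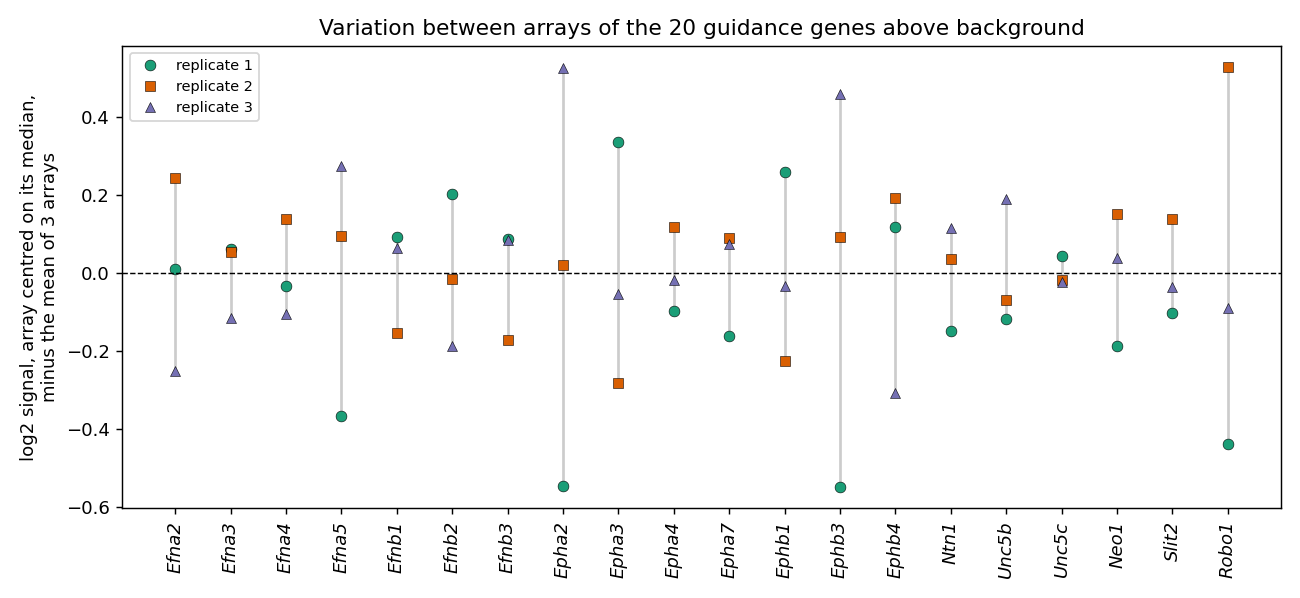
Log2 signal of each of the 20 called members on each array after median centring, minus the gene's mean over the 3 arrays, with the gene on the horizontal axis. The spread is widest for Epha2, Ephb3 and Robo1, with SDs of 0.54, 0.51 and 0.49, and narrowest for Unc5c with an SD of 0.04.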

How the data were processed

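RNA of Meis1-EGFP positive cells was measured on 3 one-colour Affymetrix arrays, 1 pool of kidneys each. The authors deposited linear intensity values, 1 for each probe set and array. GCOS is named per the submitters' processing notes, with neither version nor signal algorithm given in the sources used here. Leaving out 2% of probe sets at either end, each array had a mean of 1500.01, which shows a common scaling before deposit. All were above 0, and log2 was taken without a pseudocount.

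Of 45101 probe sets, 34945 had 1 symbol in the platform annotation, 932 had several, 9160 had none and 64 were controls. Entrez IDs were matched to RefSeq (GRCm38.p6) for 34741 of them, and 0 symbols changed. Each of 18193 genes was represented by its probe set of highest mean log2 signal. Distances from the array's background level (95th percentile of 72 chemosensory receptor genes) were tested above 0 with limma 3.58.1 in R 4.3.3 (lmFit with an intercept, eBayes) in a one-sided test, and p-values were adjusted by the Benjamini-Hochberg method across all genes, with calls under 0.05. Probe sets were fitted in the same way against the same levels. The SEs include the variation of the levels between arrays. They are limma's moderated SEs, pulled towards a prior spread shared by all genes (prior df 3.88 for genes). They can thus lie above or below the SE from the gene's own 3 distances. Neo1, for example, lay at 7.69, 7.55 and 7.57 on the 3 arrays, with a moderated SE of 0.20. The scripts were tested on simulated data. Precision is limited by the number of arrays. The members and lists were chosen with earlier results of these data known, and the list tests are counts only. All members are named, with the first 4 called and the first 3 uncalled genes of each partner list and the first 2 of each kind of the marker lists used, in list order. The markers Epcam, Krt18, Tek, Tie1, Dbh and Fabp7 are named in addition.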

Additional observations from a re-analysis of the deposited data

How the results depend on the processing

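Of 20 called members 14 kept their call in every alternative run (other background levels, quantile normalization, the mean over probe sets, filters on probe sets and dim genes, each array left out), and 13 of 16 uncalled members stayed uncalled wherever they had a value. Leaving out any 1 array changed no call of a member gene. Counts moved by at most 1.5 times, with 11 to 14 for ephrins and Eph receptors, 4 to 6 for netrins and their receptors 2 to 3 for Slits and Robos, 24 to 35 for member probe sets and 42 to 53 for partner genes. Taking the mean over probe sets turned Epha3 (-0.95) and Epha4 (-0.28) below background and ended the calls of Efnb2 (0.24) and Unc5b (0.52), and the level at the 99th percentile ended those of Efna4 (0.61) and Ephb1 (0.62). The level at the 90th percentile called Unc5a (0.80), Dcc (0.55) and Robo4 (0.72). The median SD of called members was 0.16 without centring and 0.17 with quantile normalization. Genes as near to the level as Unc5a (0.45) and Robo4 (0.37) cannot be placed firmly with 3 arrays. No paired analysis was possible because the series holds a single group.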
